A study of Mus musculus with 12 samples.

Results

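The collagen chain genes were taken as the rows whose gene name is Col, a type number, the letter a and a chain number. There were 44 such genes among the 37432 rows of the expression table, and 38 of them reached 1 FPKM (sequenced fragments scaled to transcript length and library size) in 2 or more of the 12 libraries. The libraries were made from the cochlea, the spiral organ of hearing, of mice at P14, each cochlea being cut into apical, middle and basal turns. Wild-type mice were compared with *Gjb2* 35delG/35delG homozygous mice, in which 1 G is deleted from the gene of a gap junction protein of cochlear supporting cells and fibrocytes, to ask how the loss of that protein changes expression along the cochlea. There were 2 libraries for each genotype and turn.

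The homozygous mice were males grown from stem cells through tetraploid complementation. They came from cesarean sections and were raised by ICR foster mothers, with a genetic background close to C57BL/6J. The wild-type mice were males of the same age that had been purchased, so genotype and origin cannot be told apart. The number of mice or cochleae behind a library was not given in the sources used here, libraries of different turns may share animals, and p-values then measure only the spread between these libraries. *Gjb2* itself was read at 130 to 435 FPKM in the wild-type and 57.5 to 476 FPKM in the homozygous libraries. These ranges overlap, and a gene-level value does not show the deleted base.

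Collagens are triple helices of 3 chains, and each type is built from its own chains in the endoplasmic reticulum before it is secreted, trimmed and cross-linked. Fibrillar chains form the cable-like fibrils of bone, cartilage and ligament, the type IV chains form the sheet-like network of basement membranes, and fibril-associated chains sit on the surface of fibrils. In the cochlea, types II, IX and XI are known as the collagens of the tectorial membrane and of other fibrous structures around the organ of Corti, and the *Col4a3*, *Col4a4* and *Col4a5* chains are known from Alport syndrome, an inherited disease of kidney and hearing.

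The results turn on a pair of type IV genes that lie head to head on opposite strands of chromosome 1. In the deposited table *Col4a4* spans chr1:82448423-82586849 on the minus strand and *Col4a3* spans chr1:82586976-82722059 on the plus strand, so that their starts are 127 bases apart. GENCODE places the start of *Col4a3* closer, 72 bases from that of *Col4a4*. A second pair of type IV genes, *Col4a1* (chr8:11198423-11312826, minus strand) and *Col4a2* (chr8:11312805-11449287, plus strand), has the same arrangement, with first exons that overlap. The RefSeq promoter windows (GRCm38.p6, 250 bases before to 50 bases after the gene start) of the minus-strand member of each pair are shown because each window covers the starts of both of its genes. The capitals mark, for *Col4a4* (chr1:82586800-82587099, minus strand), the 126 bases between the starts of both genes, and for *Col4a1* (chr8:11312777-11313076, minus strand), the 22 bases that both first exons hold.
Col4a4 window: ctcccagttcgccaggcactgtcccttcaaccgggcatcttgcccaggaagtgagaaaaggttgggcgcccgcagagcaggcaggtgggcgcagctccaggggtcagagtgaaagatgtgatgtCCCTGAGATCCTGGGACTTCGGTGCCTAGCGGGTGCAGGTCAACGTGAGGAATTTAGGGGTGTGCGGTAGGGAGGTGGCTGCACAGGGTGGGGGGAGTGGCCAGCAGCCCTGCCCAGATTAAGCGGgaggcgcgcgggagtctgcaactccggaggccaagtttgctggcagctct
Col4a1 window: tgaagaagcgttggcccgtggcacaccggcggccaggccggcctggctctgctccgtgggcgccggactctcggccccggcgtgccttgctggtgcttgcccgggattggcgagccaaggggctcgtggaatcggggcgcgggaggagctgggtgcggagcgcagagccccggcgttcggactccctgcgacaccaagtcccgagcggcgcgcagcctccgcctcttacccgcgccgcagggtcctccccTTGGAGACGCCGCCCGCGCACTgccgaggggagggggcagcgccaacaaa

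Short motifs were counted on both strands. CCAAT read on the other strand, ATTGG, can share bases with GGGCGG. The GC box GGGCGG occurred in 60.5% of the 38 windows of 35 collagen genes and in 35.7% of all 32851 RefSeq windows. CCAAT occurred in 34.2% and 37.4% of these windows, and TATAAA in 13.2% and 13.6%. The *Col4a4* window held none of these motifs, and the *Col4a1* window held 1 GC box and 1 CCAAT. The GC content of these windows was 63.3% and 74.0%. These matches describe letters only.

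The levels of the 44 genes ran from 0 to 1053 FPKM. Fibrillar chains were the most abundant: *Col11a2*, a chain of type XI, averaged 337 FPKM over the 12 libraries, *Col1a2* of type I averaged 318 FPKM and *Col2a1*, the only chain of type II, averaged 269 FPKM. All 11 fibrillar genes passed the filter of 1 FPKM in 2 or more libraries. *Col11a2* was the most abundant collagen gene in 6 libraries, *Col1a2* in 3, *Col2a1* in 2 and *Col9a1* in 1. The collagen genes together took 0.299% to 0.951% of a library's FPKM.

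Other classes were lower. Among the fibril-associated chains 8 of 9 passed, led by the type IX chains *Col9a2* (140 FPKM), *Col9a1* (136 FPKM) and *Col9a3* (121 FPKM). All 6 type IV genes passed, led by *Col4a1* (19.6 FPKM), *Col4a2* (17.7 FPKM) and *Col4a5* (15.0 FPKM), while *Col4a6* was low (1.63 FPKM). Of the short-chain network genes 2 of 3 passed, *Col8a1* (45.9 FPKM) and *Col8a2* (13.3 FPKM), of the type VI, beaded-filament genes 3 of 6, and of the transmembrane genes 3 of 4. The multiplexins *Col18a1* (14.8 FPKM) and *Col15a1* (11.1 FPKM) and the 3 anchoring-fibril and von Willebrand domain genes *Col26a1* (6.91 FPKM), *Col28a1* (1.89 FPKM) and *Col7a1* (0.853 FPKM) all passed.

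The 6 genes that did not pass were *Col10a1*, *Col17a1*, *Col19a1*, *Col6a4*, *Col6a5* and *Col6a6*. *Col10a1*, the collagen of hypertrophic cartilage, was highest at 0.755 FPKM, and *Col17a1*, a hemidesmosome chain, at 0.169 FPKM. *Col19a1* reached 2.02 FPKM in 1 homozygous basal library and *Col6a6* 1.53 FPKM in 1 wild-type basal library. With a minimum of 0.5 FPKM 40 genes would have passed, and with 5 FPKM 33.

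The libraries differed in tissue content, which touches every comparison below. The summed osteoblast and osteocyte markers (7 genes) were 2089 scaled FPKM in wild-type basal library 2 and 1504 in homozygous middle library 1, against 53.1 to 999 in the other 10. This gap in the sum came from 1 gene, *Bglap* (osteocalcin, 1102 and 790 against 2.17 to 53.4). In the sum of the other 6 bone markers wild-type basal library 2 (987) was level with wild-type middle library 1 (973), above homozygous middle library 1 (714). Of these 6, *Alpl*, *Sp7* and *Runx2* were also highest in the 2 libraries of highest *Bglap*. *Ibsp*, *Dmp1* and *Phex* were higher in wild-type middle library 1 than in homozygous middle library 1. The 5 tectorial and supporting cell markers summed to 466 to 2476 in the wild-type libraries and 402 to 706 in the homozygous apical and middle libraries. In the homozygous basal libraries they summed to 11.7 and 1.86. There the 5 hair cell markers summed to 3.81 and 3.62, against 15.0 to 132 in the wild-type libraries. *Myo7a* among them was at 3.42 and 2.19, against 2.37 to 13.9 in the wild-type libraries. The 5 neuron markers were at their highest in the homozygous base (2578 and 2816). Wild-type basal library 1 was at 7.75 for the neuron markers. The fibrocyte markers were 468 and 2520 in the homozygous basal libraries and 6547 to 11604 elsewhere. In whole tissue, fewer cells of a type and less RNA per cell cannot be told apart. The part of tissue content in the genotype differences was not tested except where values are given below.

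Scaled FPKM were compared on the log2(FPKM + 1) scale with limma across all genes, and a call needed a Benjamini-Hochberg adjusted p under 0.01 together with a change of more than 2-fold. Averaged over the 3 turns, 2 of 38 collagen genes were called, both lower in the homozygous mice, *Col4a3* and *Col4a4*. Of all 16215 genes tested, 0.376% were called in this comparison. The median log2 fold change of the 38 genes was 0.25, against 0.00 for all genes, with 27 genes above 0 and 11 below. In addition, *Col4a3* and *Col4a4* were lower in all 6 homozygous libraries than in any of the 6 wild-type libraries, which held for 0.66% of all genes, and *Col16a1* was higher in all 6, which held for 0.808% of all genes.

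*Col4a3* was read at 14.4 and 13.8 FPKM in the wild-type apex, 11.5 and 19.5 in the middle turn and 23.2 and 21.5 in the base. In the homozygous mice it was read at 3.60 and 3.88 FPKM in the apex, 4.15 and 4.11 in the middle turn and 2.31 and 1.56 in the base. All homozygous libraries lay below all wild-type libraries, with the lowest wild-type and highest homozygous values 11.5 and 4.15 FPKM. Over the 3 turns its log2 fold change was −2.17 ± 0.135 (SE), a 4.50-fold lower level (95% interval 3.64 to 5.56), and limma gave an adjusted p of 0.000119, at rank 11 among the p values of all genes. By turn it was −1.69 for the apex (adjusted p = 0.0172), −1.80 for the middle turn (0.0138) and −3.02 for the base (0.000838), and of these that of the base was called.

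*Col4a4* was read at 12.3 and 12.3 FPKM in the wild-type apex, 9.97 and 14.5 in the middle turn and 21.7 and 11.6 in the base. In the homozygous mice it was read at 4.80 and 3.65 FPKM in the apex, 4.54 and 5.58 in the middle turn and 2.24 and 2.17 in the base. The groups did not overlap here either, the lowest wild-type value being 9.97 and the highest homozygous value 5.58 FPKM. Its log2 fold change over the turns was −1.68 ± 0.157 (SE), a 3.21-fold lower level (95% interval 2.51 to 4.11), with an adjusted p of 0.00192. By turn it was −1.37 (0.0599) in the apex, −1.27 (0.0420) in the middle turn and −2.41 (0.00317) in the base, where the call was lost without any 1 of 4 libraries (adjusted p 0.0112 to 0.0127). Without the 2 libraries of highest *Bglap*, both genes remained called in the mean (−2.19 and −1.78, adjusted p 0.0016 and 0.00147), as they did over the apex and middle turns alone (−1.74 and −1.32, adjusted p 0.00165 and 0.00867). *Col4a4* lost its call, at adjusted p values of 0.0103 to 0.0141, without any 1 of the 4 apical libraries, while *Col4a3* remained called without each of the 12 libraries.

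The 5 tectorial and supporting cell markers differed between genotypes in both directions over the turns. *Ceacam16* was called lower (log2 fold change −4.57, adjusted p = 0.00453), *Tecta*, a tectorin of the tectorial membrane, was called higher (2.56, adjusted p = 0.00577), and *Tectb*, the other tectorin, had a log2 fold change of 1.78 (adjusted p = 0.108). *Ceacam16* made up 85.1% to 93.2% of the summed level in the wild-type libraries and 18.0% to 86.6% in the homozygous libraries. When the log2 summed level of these markers was added as a covariate, a setting chosen after the data were seen, *Col4a3* had a log2 fold change of −1.97 (adjusted p = 0.0435) and *Col4a4* −0.99 (adjusted p = 0.171), neither was called, and calls among all genes fell from 61 to 4. The part of each cell type in these differences was not tested.

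**Figure D1:**
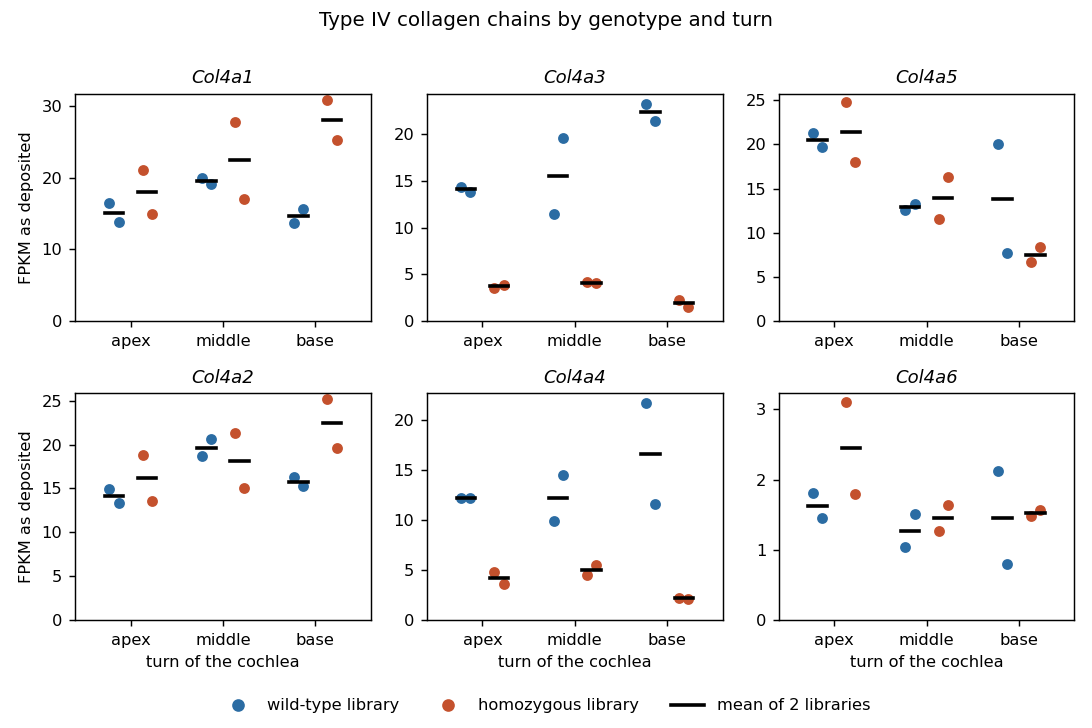
FPKM of the 6 type IV collagen chains (y axes, each starting at 0) by turn of the cochlea, with 1 point per library (blue wild-type, red homozygous) and black bars at the mean of 2 libraries. *Col4a3* and *Col4a4* have no homozygous library above 5.58 FPKM, whereas the values of the other 4 chains overlap between genotypes once the turns are pooled. In the base alone, the homozygous points of *Col4a1* and *Col4a2* lie above the wild-type points.

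The other 4 type IV chains were not called in any genotype comparison. *Col4a5*, which joins *Col4a3* and *Col4a4* in the network of the glomerulus and the cochlea, ran from 7.67 to 21.3 FPKM in the wild-type and 6.71 to 24.8 FPKM in the homozygous libraries (log2 fold change −0.25, 95% interval −0.71 to 0.22). *Col4a6* was at 0.795 to 2.12 and 1.27 to 3.11 FPKM (0.15, 95% interval −0.23 to 0.53). The widely expressed *Col4a1* (13.6 to 20.0 FPKM wild-type, 15.0 to 30.8 homozygous) and *Col4a2* (13.3 to 20.6 and 13.6 to 25.2) had mean differences of 0.35 (0.03 to 0.68) and 0.11 (−0.17 to 0.38). The intervals of these 4 chains over the turns therefore lie apart from those of *Col4a3* (−2.47 to −1.86) and *Col4a4* (−2.04 to −1.33). In the base alone, *Col4a1* was at 30.8 and 25.2 FPKM in homozygous against 13.6 and 15.7 in wild-type libraries (0.87, 95% interval 0.31 to 1.44). *Col4a2* was at 25.2 and 19.6 against 16.3 and 15.3 FPKM (0.46, −0.02 to 0.95). On scaled values, 26.2% of all genes lay wholly above in the base in this way.

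Whether the 2 chains of a pair moved together was asked with the ratio of their FPKM within each library, which does not depend on how libraries were scaled. The genotypes were permuted within turns in all 216 ways, so that the smallest two-sided p was 0.00926, and p values were adjusted over the 11 pairs. The *Col4a3*-to-*Col4a4* ratio was lower in each homozygous library than in each wild-type library, with a mean log2 difference of −0.55 (exact permutation p = 0.00926, adjusted p = 0.0509). *Col4a1* to *Col4a2* was higher in each (0.26, exact permutation p = 0.00926, adjusted p = 0.0509), with ratios of 0.837 to 1.31 across all libraries. The nearest libraries of either genotype were almost level in both ratios, at 1.07 in wild-type against 1.06 in homozygous libraries for *Col4a3* to *Col4a4* and at 1.10 in each for *Col4a1* to *Col4a2*. *Col9a1* to *Col9a2* (−0.94) and *Col11a1* to *Col11a2* (−1.10) had an adjusted p of 0.0509 as well, with libraries that overlapped. None of the 11 pairs passed an adjusted p of 0.05 in the exact permutation test, although 7 had an unadjusted p under 0.05, and the adjusted p of the remaining 7 lay between 0.0582 and 0.815.

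**Figure D2:**
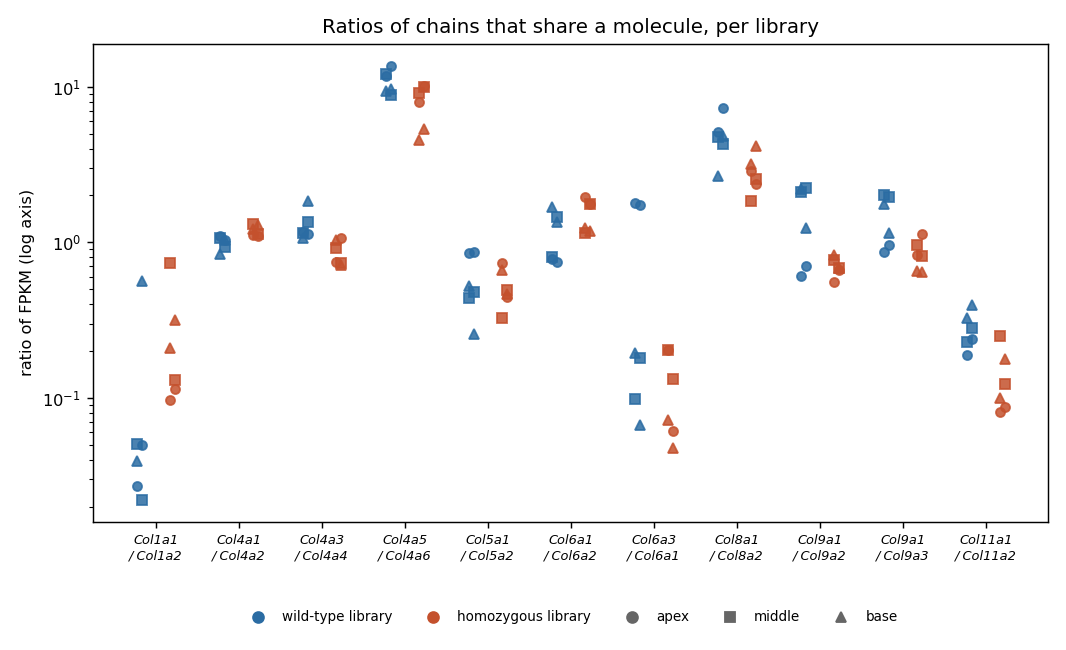
Ratio of the FPKM of 2 chains in each of the 12 libraries (log y axis) for 11 pairs of chains that share a molecule, with circles for apex, squares for middle turn and triangles for base, blue for wild-type and red for homozygous. The *Col4a1*-to-*Col4a2* ratios stay between 0.837 and 1.31, whereas *Col1a1* to *Col1a2* runs from 0.022 to 0.739.

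In the single turns, 0 of 38 collagen genes were called in the apex and 0 in the middle turn, where 0.179% of all genes were called in each, and 6 and 9 of them were higher and 4 and 5 lower with p under 0.05 before adjustment in limma. That is 26.3% and 36.8% of the 38, against 16.4% and 25.4% of all genes. In the base 1 gene was higher and 3 lower, where 4.29% of all genes were called. The median log2 fold change of the 38 genes was 0.12 in the apex, 0.62 in the middle turn and −0.17 in the base, against −0.03, 0.04 and −0.02 for all genes. Besides *Col4a3* and *Col4a4*, the genes called in the base were *Col11a1*, lower, and *Col14a1*, higher.

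**Figure D3:**
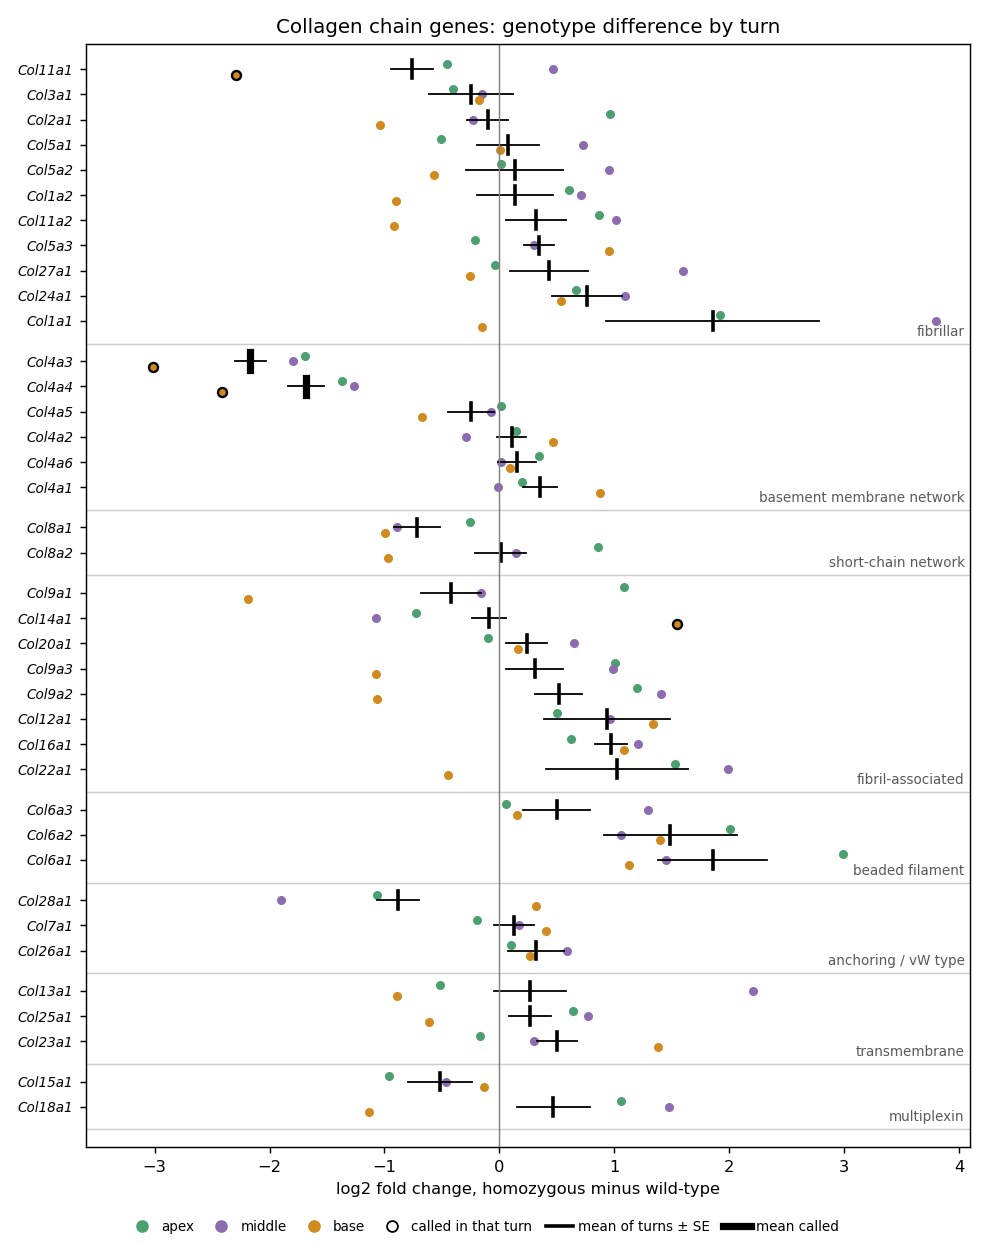
Log2 fold change (homozygous minus wild-type, x axis) of the 38 tested collagen genes, ordered by class and by the mean of the turns, with 1 coloured point per turn, a black outline for a call in that turn and a black bar with ± 1 SE for the mean. *Col4a3* and *Col4a4* lie left of 0 in each turn, whereas the apical and middle points of the type IX chains lie apart from the basal points.

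*Col11a1*, a fibril-nucleating chain of type XI, was read at 92.4 and 131 FPKM in the wild-type base against 27.5 and 17.3 in the homozygous base. In the apex it was 46.2 and 61.2 against 44.7 and 34.4 FPKM, and in the middle turn 48.1 and 76.1 against 105 and 85.9 FPKM. The homozygous libraries lay below the wild-type libraries in the base and the apex and above them in the middle turn, where the groups overlap once scaled. On scaled values, 27.8% of all genes lay wholly below in the base and 32.1% in the apex. In the base the log2 fold change was −2.30 ± 0.31 (SE, adjusted p = 0.0051). It lost its call, at adjusted p values of 0.0106 to 0.0184, when 1 of 7 libraries was left out, both apical wild-type, both apical homozygous, both basal homozygous or wild-type basal library 1.

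*Col14a1*, a fibril-associated chain found in fibrous tissue and nerve sheaths, was read at 15.2 and 11.4 FPKM in the homozygous base against 3.62 and 4.06 in the wild-type base. In the apex it was 4.07 and 3.54 FPKM against 6.51 and 7.15, and in the middle turn 3.82 and 2.08 FPKM against 5.25 and 7.67. The homozygous libraries lay above those of wild-type mice in the base and below them in the other turns. On scaled values, 26.2% of all genes lay wholly above in the base. Wholly below lay 32.1% in the apex and 28.2% in the middle turn. In the base the log2 fold change was 1.54 ± 0.256 (SE, adjusted p = 0.00805), which was above 0.01 without any 1 of 9 libraries (0.0121 to 0.0419), those being all but wild-type basal library 2 and the 2 homozygous middle libraries. The 5 Schwann cell and myelin markers summed to 8984 and 14283 scaled FPKM in the homozygous base and to 1339 and 5419 in the wild-type base, and their part and that of the neuron markers in the *Col14a1* level was not tested.

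The genotype effect of these genes differed between the base and the middle turn, by 2.62 for *Col14a1* (adjusted p = 0.00308) and −2.77 for *Col11a1* (adjusted p = 0.00426). These were 2 of 38 collagen genes called in that test (5.26%), in which 8.91% of all genes were called. The neuron and Schwann cell markers differed between the genotypes in opposite directions in these turns, and their part in this was not tested. The test of base against apex called 0 of 38 (4 higher and 11 lower with p under 0.05 before adjustment in limma, which held for 28.4% of all genes), with 0.796% of all genes called, and that of middle turn against apex 0 of 38 (1 higher and 1 lower, against 8.05% of all genes), with 0% of all genes called. Within the homozygous mice, *Col14a1* was higher in the base than in the apex (1.61, adjusted p = 0.00675) and than in the middle turn (1.93, adjusted p = 0.00439), and *Col11a1* was lower in the base than in the middle turn (−2.00, adjusted p = 0.00608), in comparisons that called 4.06% and 4.66% of all genes. Each of these 3 calls was lost without any 1 of 8 of the 12 libraries, at adjusted p values of 0.0108 to 0.058, 0.0107 to 0.0179 and 0.0122 to 0.0296 in that order. The middle turn against the apex called 0 in the homozygous mice (3 higher and 0 lower with p under 0.05 before adjustment, against 2.65% of all genes), with 0% of all genes. Within wild-type mice no collagen gene was called between turns in limma, where 0.0863% of all genes were called for the middle turn against the apex and for the base against the apex and 0% for the base against the middle turn. Before adjustment, with p under 0.05, these comparisons had 5, 10 and 1 collagen genes higher and 4, 3 and 2 lower in the turn named first, or 23.7%, 34.2% and 7.89% of the 38 against 19.9%, 20.3% and 15.2% of all genes.

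The chains that build the type II, IX and XI fibrils, *Col2a1*, *Col9a1*, *Col9a2*, *Col9a3*, *Col11a1* and *Col11a2*, had log2 fold changes below 0 in the base in 6 of 6 (−2.30 to −0.92), of which that of *Col11a1* was called. In the apex 5 of 6 were above 0 (−0.46 to 1.20) and in the middle turn 4 of 6 (−0.23 to 1.41). Of all 16215 genes tested, 8379 were below 0 in the base, and 7628 and 8652 were above 0 in the apex and middle turn. Of the 38 collagen genes, 21 were below 0 in the base, and 23 and 26 were above 0 in the apex and middle turn. *Col9a1*, the most changed of the type IX chains in the base, was read at 309 and 140 FPKM in the wild-type base against 64.2 and 31.8 in the homozygous base (log2 fold change −2.19, adjusted p = 0.0141), and was not called. Without wild-type basal library 2, which leaves 1 wild-type basal library that is assumed to vary like the other groups, 10 in place of 4 collagen genes were called in the base, *Col9a1* (−2.73) and *Col4a5* (−1.29) among them, while calls among all genes went from 696 to 1840. *Col9a2* was at 285 and 206 FPKM in the homozygous apex, 103 and 103 in the wild-type apex, 77.8 and 46.7 in the homozygous base and 140 and 114 in the wild-type base. The chondrocyte markers summed to 352 and 34.6 in the homozygous basal libraries and to 591 to 1798 in the wild-type libraries, and their part in these differences was not tested.

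**Figure D4:**
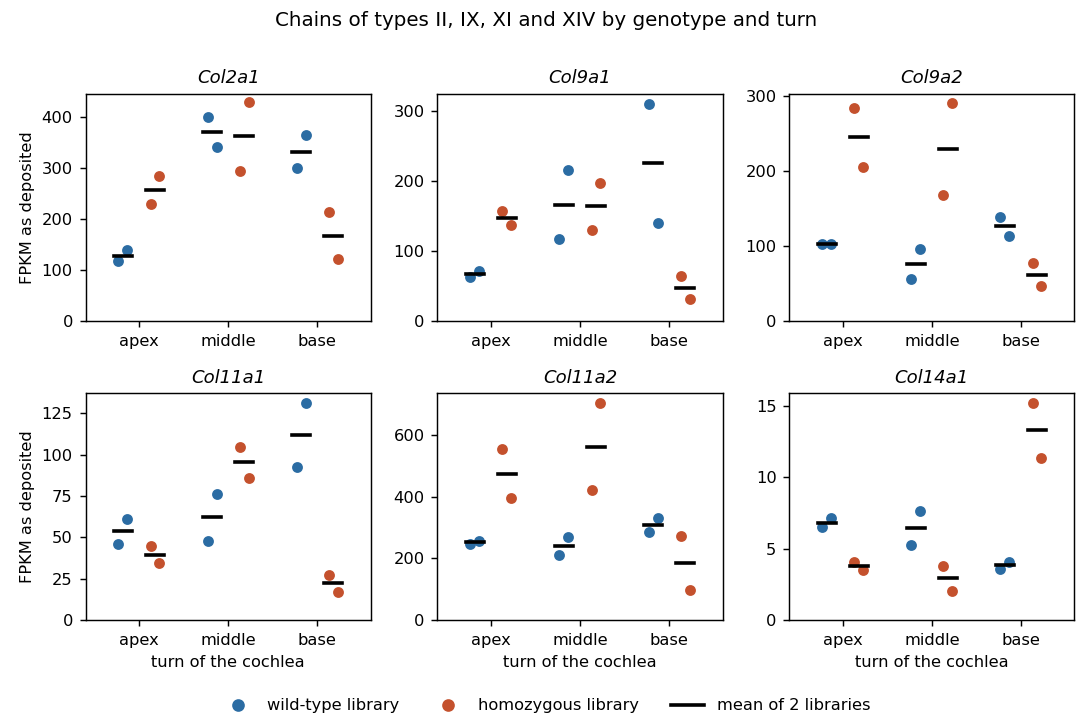
FPKM of *Col2a1*, *Col9a1*, *Col9a2*, *Col11a1*, *Col11a2* and *Col14a1* by turn of the cochlea (y axes from 0), with 1 point per library, blue for wild-type and red for homozygous, and black bars at the mean of 2 libraries. The homozygous basal points of the first 5 genes lie below the wild-type basal points, while those of *Col14a1* lie above them. On scaled values, 27.8% of all genes tested lay wholly below in the base in this way and 26.2% wholly above.

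Type I collagen, the main fibril of bone, is a trimer of 2 *Col1a1* chains and 1 *Col1a2* chain, yet *Col1a2* was the more abundant transcript in all 12 libraries. *Col1a1* was 3.76 and 6.83 FPKM in the wild-type apex, 14.03 and 6.42 in the middle turn and 10.9 and 304 in the base. In the homozygous mice it was 20.6 and 24.6 in the apex, 778 and 33.8 in the middle turn and 43.4 and 65.9 in the base. The highest values were in the libraries of highest *Bglap*, wild-type basal library 2 (304 FPKM, with *Bglap* at 1102 scaled FPKM) and homozygous middle library 1 (778 FPKM, *Bglap* at 790). The sum of the other 6 bone markers did not follow this order. Wild-type middle library 1, with a sum of 973 scaled FPKM, had *Col1a1* at 14.03 FPKM, and homozygous middle library 1 had a sum of 714. *Ibsp*, *Dmp1* and *Phex* were higher in the first of these 2 libraries. *Alpl* (104 and 73.5, at most 30.6 elsewhere), *Sp7* (22.6 and 19.4, at most 15.2) and *Runx2* (8.57 and 9.49, at most 7.19) were highest in wild-type basal library 2 and homozygous middle library 1. The repeats of those groups differed from each other by more than the mean difference between genotypes, and the log2 fold change over the turns, 1.86 ± 0.925 (SE), was not called (adjusted p = 0.334).

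Wild-type basal library 2 and homozygous middle library 1 had the highest *Col1a1* values of their genotypes. Without them the 5 homozygous values (20.6 to 65.9 FPKM) lay above the 5 wild-type values (3.76 to 14.03 FPKM). That separation needs the removal of wild-type basal library 2. The gene was called in this fit (log2 fold change 1.89), which was chosen after the data were seen and leaves 1 library in 2 groups. *Col1a2* had 137 to 540 FPKM in the wild-type and 207 to 1053 FPKM in the homozygous libraries, and its mean genotype difference was 0.14 on the log2 scale (adjusted p = 0.884). The *Col1a1*-to-*Col1a2* ratio ran from 0.022 to 0.739, a 33.6-fold range, and the log2 ratio was higher by 1.83 in homozygous libraries (exact permutation p = 0.0556, adjusted p = 0.0764). The bone markers were at 53.1 and 111 scaled FPKM in the wild-type apex, 271 and 623 in the homozygous apex.

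**Figure D5:**
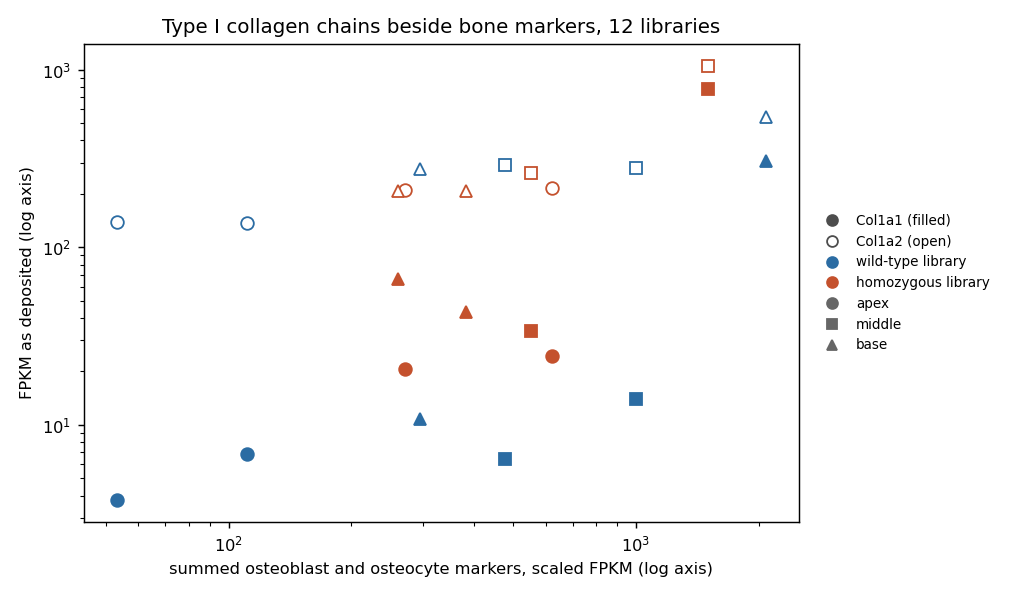
FPKM of *Col1a1* (filled) and *Col1a2* (open) against the summed level of 7 osteoblast and osteocyte markers (both axes log) in 12 libraries, blue for wild-type, red for homozygous, with circles for apex, squares for middle turn and triangles for base. The highest *Col1a1* values, 304 and 778 FPKM, belong to the libraries with the highest marker sums, 2089 and 1504, of which *Bglap* makes up 1102 and 790.

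*Col6a1* and *Col6a2*, chains of type VI, were at 0.813 and 0.831 FPKM and 1.04 and 1.11 FPKM in the wild-type apex, and at 10.5 and 18.3 FPKM and 5.36 and 10.4 FPKM in the homozygous apex, with log2 fold changes over the turns of 1.86 (adjusted p = 0.0793) and 1.49 (adjusted p = 0.21). In the base *Col6a1* was at 8.61 and 43.3 FPKM in wild-type and 28.2 and 69.1 FPKM in homozygous libraries, which overlap. *Col16a1*, a fibril-associated chain of cartilage and smooth muscle, was at 4.73 to 7.76 FPKM in the wild-type and 8.68 to 17.0 FPKM in the homozygous libraries, without overlap. Its log2 fold change of 0.97 ± 0.137 (SE) was below the fold of 2 that a call required, and its limma adjusted p of 0.0116 was above 0.01. The gene was called under the deposited scale (1.03). It was also called without wild-type basal library 2 (1.08) and without the 2 libraries of highest *Bglap* (1.05), fits that leave groups of 1 library. *Col22a1*, a chain of tissue junctions, was at 0.0574 to 13.8 FPKM in the wild-type libraries, with 13.8 FPKM in wild-type basal library 2 and 11.2 FPKM in homozygous middle library 1.

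The transmembrane gene *Col13a1* was at 3.57 and 2.25 FPKM in the wild-type middle turn and 22.5 and 15.2 FPKM in the homozygous middle turn (log2 fold change 2.20, adjusted p = 0.0576), against 16.6 and 14.7 in the wild-type apex and 12.9 and 9.08 in the homozygous apex. *Col23a1* was at 9.52 and 18.3 FPKM in the homozygous base against 3.37 and 5.74 in the wild-type base (1.38, adjusted p = 0.0169). *Col28a1*, a von Willebrand domain chain of peripheral nerve, was at 0.291 and 0.421 FPKM in the homozygous middle turn against 2.41 and 5.46 FPKM in the wild-type middle turn (−1.90, adjusted p = 0.0285). The Schwann cell and myelin markers summed to 751 and 728 scaled FPKM in the homozygous and 19195 and 5456 in the wild-type middle turn, and their part was not tested. *Col15a1*, a basement membrane zone multiplexin, was at 6.22 and 4.13 FPKM in the homozygous apex against 10.8 and 10.5 FPKM in the wild-type apex (−0.96, adjusted p = 0.367). None of *Col13a1*, *Col23a1*, *Col28a1* and *Col15a1* was called in the main fit. *Col13a1* was called in the middle turn without either wild-type basal library (2.21 and 2.20) and *Col23a1* in the base without wild-type basal library 2 (1.72), fits in which the wild-type base is 1 library. After scaling to an equal sum, with all 12 libraries, *Col23a1* was also called in the base (1.47, limma adjusted p = 0.00755).

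The genes that make, trim, cross-link, bind and degrade collagen were described from 64 genes in 7 lists, 62 of which were tested. None was called in the apex or middle turn in limma, where 18 and 22 were higher and 2 and 2 lower with p under 0.05 before adjustment, while 4 were lower and 0 higher in the base, and 1 was lower over the turns, with medians of 0.44, 0.52, −0.21 and 0.24 in the same order. At that unadjusted threshold stood 32.3% and 38.7% of the 62 in the apex and middle turn, against 16.4% and 25.4% of all genes, and 6.45% and 1.61% were called in the base and over the turns, against 4.29% and 0.376% of all genes. *Lox*, the lysyl oxidase that cross-links collagen, was at 151, 144, 37.6, 74.5, 120 and 211 scaled FPKM in the wild-type apical, middle and basal libraries and at 30.2, 21.5, 65.1, 43.1, 7.28 and 6.17 scaled FPKM in the homozygous libraries in that order. Over the turns its log2 fold change was −2.29 (adjusted p = 0.00197). By turn it was −4.38 for the base (adjusted p = 0.00126), −2.48 for the apex (0.0248) and 0.00 for the middle turn (0.999).

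The other genes called in the base were *Loxl4*, a lysyl oxidase-like enzyme (−1.49), *Plod2*, a lysyl hydroxylase (−1.62), and *Pcolce2*, a procollagen C-proteinase enhancer (−2.09). The most abundant members were not called in any turn or over the turns, among them *Sparc*, a collagen-binding matricellular protein (2934 scaled FPKM on average), *Serpinh1*, the collagen chaperone HSP47 (139), *P4hb*, a subunit of prolyl hydroxylase (100.3), *Dcn*, the proteoglycan decorin (365), *Epyc*, the proteoglycan epiphycan (554), and *Itgb1*, the integrin beta 1 chain (99.4).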

How the data were processed

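RNA-seq was performed on 12 libraries of apical, middle and basal turns of cochleae from wild-type and homozygous mice. According to the submitters' notes, RNA was extracted with the miRNeasy Micro Kit, libraries were prepared with a VAHTS Universal kit and 150 nt paired ends were read. The authors trimmed reads with fastp 0.20.0, aligned them to mm10 with STAR 2.7.3a, kept unique reads, and computed FPKM with StringTie 2.0. The authors deposited these FPKM for 37432 genes, and their counts were not used here, so the depth behind a value is unknown. Strandedness of the counting is not given in the sources used here, and 18 collagen genes overlap a gene on the other strand.

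Scaled FPKM are FPKM over a median-of-ratios factor per library (11552 genes, 0.917 to 1.06). Genes had to reach 1 FPKM in 2 libraries, which left 16215, and the test was limma 3.58.1 (R 4.3.3, eBayes with trend, 6 residual and 2.78 prior degrees of freedom) on log2(scaled FPKM + 1), 1 mean per genotype and turn, two-sided, adjusted over these genes. Values per library are FPKM as deposited. Fold changes on this scale understate the change of low genes. Chain ratios used log2(FPKM + 0.1). The model was tested on simulated data. No value column was left unused (0).

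Members and lists were chosen with earlier results of these data known. Genes named were the 3 highest members of each class, members called in any comparison, the 3 largest rises and falls among members averaging 5 scaled FPKM or more, the chains of the 11 pairs, in each pathway list the 2 highest genes and those called in a genotype comparison, and in each marker list the 2 highest, and not all are described. *Col16a1*, *Tecta*, *Tectb*, *Myo7a*, *Alpl*, *Sp7*, *Runx2*, *Dmp1*, *Phex*, *Acan*, *Hapln1*, *Comp*, *Matn1* and the 6 members that did not pass were named outside this rule, after their values were seen. Repeat numbers were not taken as pairs, since no label ties them and the deviations of equal numbers correlated at over 0.1 in 4 of 15 pairs of groups (−0.43 to 0.45). Alternatives were other pseudocounts, filters and scalings, no trend, a replicate block, only the libraries concerned, an adjusted p under 0.05, each library left out, and 3 settings added after the data were seen. Promoter windows came from RefSeq (GRCm38.p6, 35 of 44 members), and 34 members had the same span in GENCODE. Plots used matplotlib 3.10.9 (Python 3.11.15).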

Additional observations from a re-analysis of the deposited data

Results flagged for a closer look

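For 2 collagen genes the genotype effect in the base differed from that in the middle turn by a limma test of the difference itself. *Col14a1* had a difference of effects of 2.62 on the log2 scale (adjusted p = 0.00308) and *Col11a1* one of −2.77 (adjusted p = 0.00426). *Col14a1* was called with each of the 12 libraries left out, and *Col11a1* was not without wild-type middle library 1, homozygous basal library 2 or either homozygous middle library (adjusted p 0.0116 to 0.0158), nor without both wild-type basal library 2 and homozygous middle library 1 (−2.33, adjusted p = 0.017). In the same test 8.91% of all genes and 5.26% of the 38 collagen genes were called. The neuron markers were higher in wild-type than homozygous libraries in the middle turn (1327 and 1429 against 306 and 34.7 scaled FPKM). In the base they were lower (7.75 and 732 against 2578 and 2816). Whether the pieces labelled middle and base match between the genotypes was not tested.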

How the results depend on the processing

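The mean effect of *Col4a3* over the turns was called in 22 of 23 settings (log2 fold change −2.47 to −1.74, adjusted p 6.06e-05 to 0.0435), and that of *Col4a4* in 18 of 23 (−1.92 to −0.99, adjusted p 0.000357 to 0.171). Equal repeat numbers correlated at over 0.1 in 4 of 15 pairs of groups, so they were not taken as pairs, although turns may share animals. A replicate block left 2 collagen genes called in the base in place of 4, 0 in place of 1 for base against apex and 1 in place of 2 for base against middle turn within homozygous mice, and 2 over the turns. Calls among all genes were then 177 in place of 696, 145 in place of 659, 300 in place of 756 and 34 in place of 61. With no filter 2 were called in the base, 0 for the difference of base and middle turn effects and 0 in both homozygous comparisons. Calls among all genes fell there to 89, to 296 and to 13 and 71. With only the libraries concerned 1 was called in the apex, 0 in the base, 0 for base against apex and 1 for base against middle turn in homozygous mice. Among all genes 93, 0, 72 and 417 were called in that order. A filter of 5 FPKM gave 2 for base against apex in homozygous mice, with 623 calls among all genes. Scaling to an equal sum and quantile normalization each called 1 in the difference of base and apex effects, with 439 and 361 calls among all genes in place of 129. An adjusted p under 0.05 called 1 in the apex, 4 in the middle turn, 8 in the base, 8 in each of the differences of base against apex and base against middle turn, and 6 and 9 in the homozygous comparisons of base against apex and against middle turn, where calls among all genes were 136, 475, 1954, 1810, 3214, 2012 and 2014 in that order (29, 29, 696, 129, 1445, 659 and 756 at 0.01). Without the 2 libraries of highest *Bglap*, which leaves 1 library in 2 groups, 10 were called in the base, 4 over the turns, 4 in the difference of base and apex effects, and 6 and 4 in the homozygous comparisons of base against apex and against middle turn (all genes 1699 in place of 696, 204 in place of 61, 1023 in place of 129, 1531 in place of 659 and 1104 in place of 756), and the median difference in the middle turn fell from 0.62 to 0.15. With the marker covariate 0 were called over the turns, and the signs of *Col6a2* (−1.89), *Col6a1* (−1.22) and *Col1a1* (−3.21) were reversed, as was that of *Col11a1* over apex and middle turn (0.0052). With each library left out, calls ranged from 0 to 1 in the apex and in the middle turn, from 1 to 10 in the base (10 without wild-type basal library 2), from 1 to 3 over the turns, from 0 to 4 and from 1 to 5 in the differences of base against apex and base against middle turn, and from 0 to 5 and from 0 to 4 in the homozygous comparisons, and the median in the middle turn from 0.149 to 0.622. A pseudocount of 1 in the chain ratios put 5 pairs past an adjusted p of 0.05 (exact permutation, all at 0.0407), *Col4a3* to *Col4a4* (−0.48), *Col4a1* to *Col4a2* (0.25), *Col4a5* to *Col4a6* (−0.37), *Col9a1* to *Col9a2* (−0.94) and *Col11a1* to *Col11a2* (−1.08). The cause of these changes was not tested. Without counts, the spread of 2 libraries a group is the only measure of precision.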
